A study of Mus musculus with 72 samples.

Results

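The reporters described here are the 1266 integrations that the deposited table places on mouse chromosome 1 (mm9 positions), out of 17857 integrations on all chromosomes, or 7.09%. They were taken by chromosome alone, from all 6 cell pools, with no use of their expression. Positions ran from 4054232 to 196956800, a span of 192.9 Mb, which gives 6.56 integrations per Mb. The pools added 181 (mPGK-C) to 242 (mPGK-E) of them, and no pool held more than 1 in 5 of them.

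The study used TRIP, an assay in which a large number of reporter genes, each with its own random barcode, are placed across a genome and read in parallel. All groups were the same mouse embryonic stem cell line, EBRTcH3, which makes the tetracycline-controlled transactivator from the ROSA26 promoter. All cells received the same piggyBac plasmid library, in which the promoter of mouse phosphoglycerate kinase (mPGK) drives the reporter, and grew in conditioned medium with leukemia inhibitory factor, the MEK inhibitor PD0325901 and the GSK-3 inhibitor CHIR99021. Cells of low eGFP signal were sorted and grown for 5 days, small pools of them for 7 days more, and each pool was then divided into 2 cultures kept apart for 7 days. The pools mPGK-A to mPGK-F thus differ only in which cells they hold, and there is no treated group. The 2 cultures of a pool are technical replicates, so tests of a single reporter measure only the spread between them. Every pool descends from cells sorted for low eGFP soon after transfection, so reporters of cells outside that gate are not seen.

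As background, a gene placed at random in a genome takes on part of the activity of its surroundings, which is called a position effect. PiggyBac inserts at TTAA and is known to favour open, transcribed chromatin. The PGK promoter is that of a housekeeping enzyme of glycolysis and is active in most cell types, so identical copies of it are used to compare sites. Here a reporter's level is the log2 of its share of RNA reads over its share of DNA reads in its pool, averaged over both cultures, with 0 set at the median of the pool. A level of 1 is therefore a 2-fold higher output than the middle reporter of the same pool.

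The high stretches with the largest means on chromosome 1, each of 5 reporters, and a silent reporter show the range. The barcodes below name the reporters concerned. Barcodes are written 5′ to 3′ in lower case and no base is set in capitals, since the barcode only identifies its reporter. The first 5 are the reporters of a stretch only 6.40 kb long, from 89124135 to 89130535, in the order of their positions. The next 5 are those of a stretch of 90.7 kb, from 88326773 to 88417476. The last is the reporter that had the most DNA reads among those with no RNA read.
mPGK-B at 89124135: gggcaagtgctgcaat
mPGK-D at 89125361: tcaatccgacgacgaa
mPGK-F at 89125515: tacaaatcatcccaca
mPGK-E at 89127606: agaaaccatcttattc
mPGK-B at 89130535: tctcgcactacaatat
mPGK-E at 88326773: tcaatgacccgaattt
mPGK-D at 88378046: cgttctctatccctca
mPGK-F at 88399328: cccgccaacttaagtc
mPGK-C at 88400182: caatcgtattcataaa
mPGK-F at 88417476: agaaaaaattgttcga
mPGK-D at 75591906: ctaaaacccttggact

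In the stretch from 89124135 the levels were 3.97, 5.83, 4.21, 4.40 and 1.88, in the order of the barcodes. Reporters of 4 pools, on both strands, were thus all at least 3.68-fold above the median of their pool within a few kilobases. The mPGK-E reporter at 89127606 had 3422 and 3900 DNA reads and 25994 and 27054 RNA reads in its cultures, so its level of 4.40 rests on deep counts. The next listed reporter lay 2.97 kb beyond the last of these and had a level of -0.70, so this edge rests on a single reporter. In the stretch from 88326773 the 5 levels were 1.83, 2.28, 6.58, 4.74 and 5.50, and the highest reporter of the chromosome is among them. By contrast, the mPGK-D reporter at 75591906 had 10303 and 10132 DNA reads and 0 RNA reads in both cultures, which puts it at least 2115-fold below the median of its pool if the floor is 3 RNA reads for the 2 cultures together. Such floors cover counting error only, because reads after PCR are not independent molecules.

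Over the listed barcodes of a pool, DNA reads summed to between 3386477 and 3693449 per culture and RNA reads to between 2880244 and 3508366. On chromosome 1 the median reporter had 1608 reads in DNA and 480 in RNA, both cultures summed. Levels in the 2 cultures of a pool ranked alike, with Spearman coefficients of 0.928 (mPGK-A) to 0.946 (mPGK-E) across its reporters, which are not independent replicates. The error of a single culture was 0.84 on the log2 scale. It was 0.42 for the 829 reporters with at least 100 RNA reads in each culture and 1.31 for the 437 others, so low levels are known less well than high ones.

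Levels on the chromosome as a whole were slightly low and ranged wider than on the other chromosomes together. The 5th and 95th percentiles of level were -4.89 and 3.28, a 289-fold range, against 225-fold for the others, and the median was -0.13. The error of a single culture was also larger, 0.84 against 0.77 on the other chromosomes. Its part in the wider range was not tested, and the range was not taken for each chromosome. More than 16-fold below the pool median lay 107 reporters (8.45%, against 6.33% elsewhere), and more than 16-fold above it lay 27 (2.13%, against 2.50% elsewhere). No RNA read was counted in either culture at 18 reporters (1.42%, against 1.00% elsewhere), of which 8 were in mPGK-D. In edgeR's quasi-likelihood test of RNA against DNA, at a Benjamini-Hochberg adjusted p under 0.05 over all 17857 barcodes, 434 reporters of chromosome 1 (34.3%) were higher and 459 (36.3%) lower than the median of their pool. The background over all chromosomes was 36.9% higher and 33.7% lower (37.1% and 33.5% on the other chromosomes), so these shares were near the background and only slightly moved towards low.

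Means per pool showed the same small shift. The mean of chromosome 1 minus that of the other chromosomes was -0.11 in mPGK-A, -0.21 in mPGK-B, -0.0096 in mPGK-C, -0.20 in mPGK-D, -0.45 in mPGK-E and -0.16 in mPGK-F. It was below 0 in 6 of 6 pools, with a mean of -0.19 ± 0.15 (SD, n = 6 pools), a 1.14-fold difference. The two-sided exact sign-flip permutation test over pools gave p = 0.03125, which is the smallest p that 6 pools allow. As a family, 10 differences of this kind were adjusted together, and those with an exact permutation p of 0.03125 have an adjusted p of 0.0391. This one missed the threshold with 5 RNA reads added in place of 0.5 (-0.16, exact permutation p = 0.0625) and with replicate 1 alone (-0.16, exact permutation p = 0.0625). It was -0.14 without mPGK-E. The tests of the 10 segments, of strand on each of the 20 chromosomes and of alternatives lie outside the family of 10. The adjusted p of that family therefore does not cover all tests run.

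**Figure D1:**
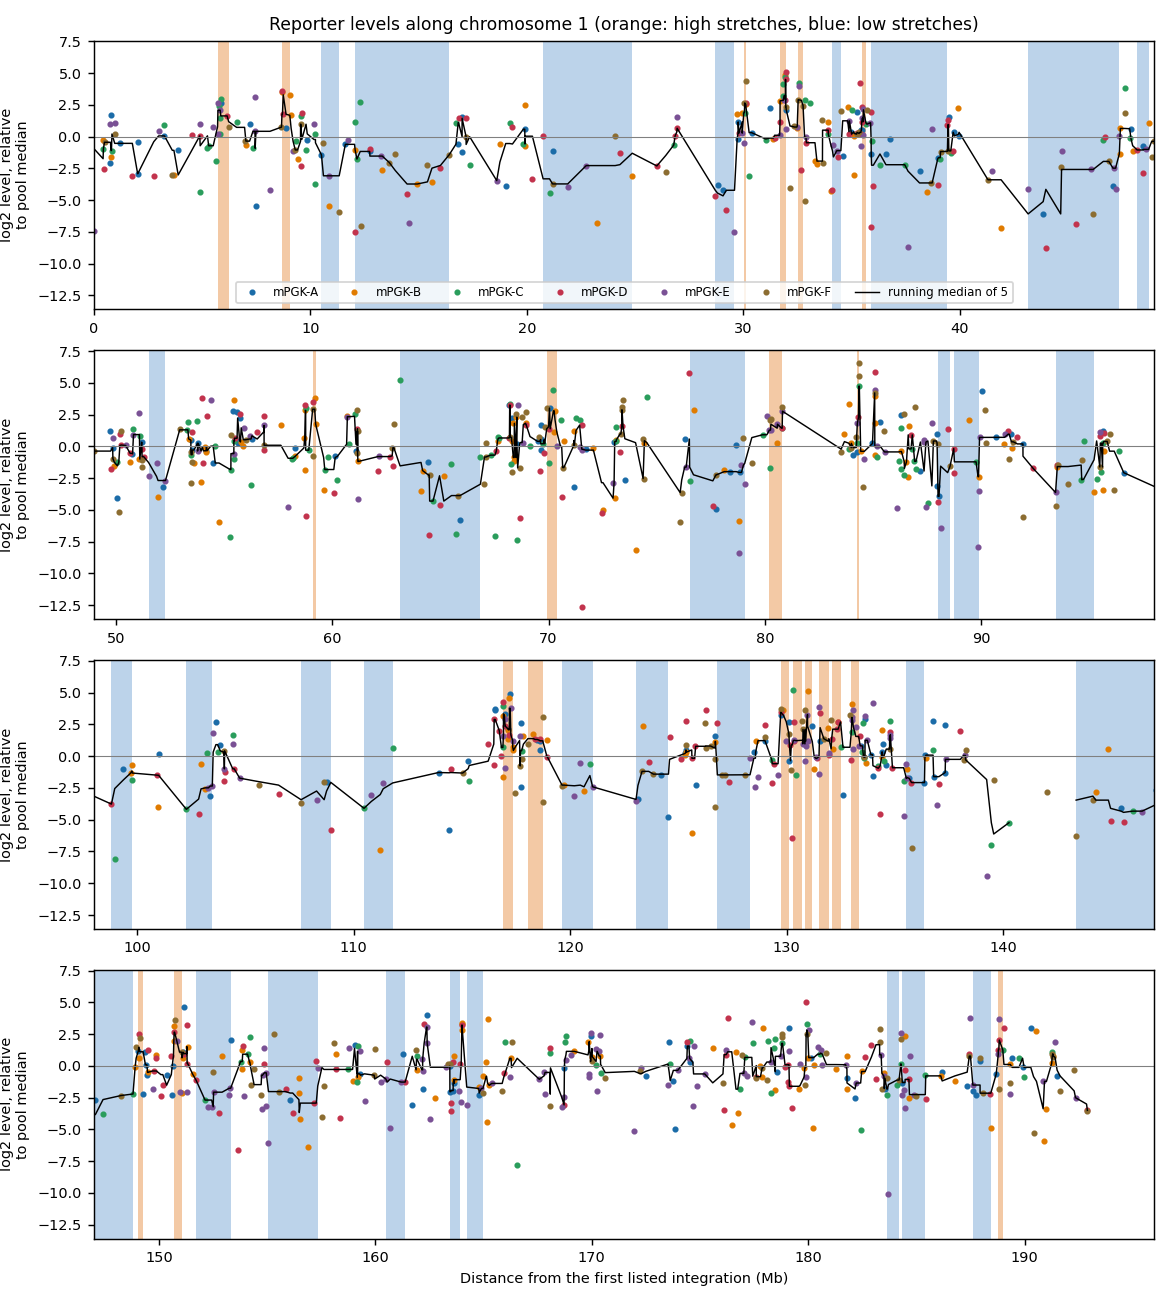
Level of each of the 1266 reporters (points, coloured by pool; vertical axis, log2 relative to the pool median) against distance from the first listed integration in Mb, in 4 rows. The line is the running median over 5 neighbouring reporters, and the shaded stretches are the 22 high (orange) and 31 low (blue) ones; high stretches are short and crowded, low ones long and sparse.

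On the scale of 20 Mb, a poor segment and a rich segment lay side by side. From 100000001 to 120000000 the chromosome held only 50 reporters, or 2.50 per Mb, and their mean levels were -1.20, -2.76, -1.77, -2.63, -1.48 and -2.06 in mPGK-A to mPGK-F. All pools were low there, with a mean of -1.99 ± 0.62 (SD, n = 6 pools), and the segment lay 1.69 log2 units (3.23-fold) below the rest of the chromosome. Of its reporters 32 (64%) were called lower and 5 higher, against the background of 33.7% and 36.9%. From 120000001 to 140000000 there were 190 reporters, or 9.5 per Mb, the densest segment, with means of 0.58, 0.94, 0.80, 0.74, 0.61 and 0.09 in the same pools. All pools lay above 0, with a mean of 0.63 ± 0.29 (SD, n = 6 pools), which was 1.16 log2 units (2.24-fold) above the rest of the chromosome. In this segment 50.5% of reporters were called higher and 20.0% lower. The segment from 40000001 to 60000000 was also below the rest in 6 of 6 pools, at -0.93 ± 0.42 (SD, n = 6 pools). All of these 3 reached an exact sign-flip permutation p of 0.03125, but with the 10 segments as a family the adjusted p was 0.104, so none passed.

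The other 7 segments had means between -0.95 and 0.05, and their pools lay on both sides of the rest of the chromosome. The widest disagreement was from 140000001 to 160000000, where mPGK-B had a mean of 0.29 and mPGK-E one of -2.35. Each pool had at least 10 reporters there.

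**Figure D2:**
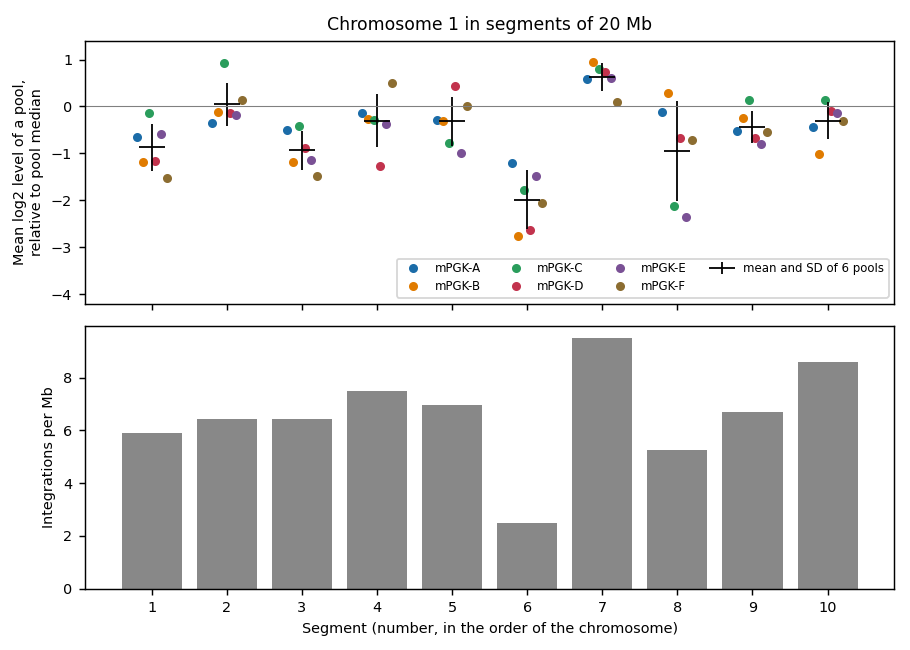
Top, mean log2 level of each pool (points) and mean with SD over 6 pools (black) in the 10 segments of 20 Mb, numbered along the chromosome; bottom, integrations per Mb. Segment 6 has the lowest mean (-1.99) and 2.50 integrations per Mb, and segment 7 beside it the highest mean (0.63) and 9.5 per Mb.

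In windows of 2 Mb, 82 of the 97 windows spanned held at least 5 reporters, 15 held 1 to 4 and 0 were empty. A mean of 1 or more was found in 7 of the 82 windows and a mean of -1 or less in 29. The window with the highest mean, from 120000001 to 122000000, averaged 1.57 over 35 reporters, with 23 called higher (background 36.9%). Windows from 38000001 and 72000001 also held 35 reporters, the most of any window, and had means of only 0.11 and 0.52. Its pools did not all share this, since mPGK-F had a mean of -1.31 while the other 5 lay between 1.55 and 2.56. The next highest windows began at 34000001 (1.52, 21 reporters), 84000001 (1.51, 12), 88000001 (1.46, 26), 136000001 (1.42, 31) and 134000001 (1.22, 32). In the windows from 34000001, 88000001, 134000001 and 136000001 all 6 pools had a mean above 0, from 0.14 to 4.06. These windows, and the low ones below, were ranked by the levels that also make the calls. Their called counts and pool means thus follow in part from the choice and are no test.

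The low windows were thinly filled. Among windows with at least 5 reporters the lowest, from 18000001 to 20000000, averaged -4.16 over 5 reporters, all called lower (background 33.7%). The window from 68000001 to 70000000 held the most reporters of the 6 lowest, 12 from 5 pools, with a mean of -3.76 and all 12 called lower. The other 4 of the 6 lowest began at 148000001 (-3.35), 114000001 (-3.19), 40000001 (-3.10) and 102000001 (-2.79), each with 5 or 6 reporters. Windows at -1 or less held a median of 9 reporters and windows at 1 or more a median of 28. Over the 82 windows the number of reporters and the mean level had a Pearson r of 0.637 and a Spearman rho of 0.634, where windows share pools and neighbours, so this is a description.

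To find stretches with no fixed grid, the running median over 5 neighbouring reporters was followed along the chromosome. A stretch was called high at a running median of 1 or more and low at -1 or less, with at least 5 reporters and no gap of 1 Mb inside. There were 22 high stretches with 161 reporters (12.7%) and 31 low stretches with 271 (21.4%), and 834 reporters (65.9%) lay outside both, with a mean of -0.20. High stretches were short, with a median length of 351 kb and at most 682 kb, and filled 3.73% of the span at a median of 20.6 reporters per Mb. Low stretches were long, with a median of 1199 kb and at most 5416 kb, and filled 27.6% of the span at 5.71 reporters per Mb. Since each needs 5 reporters, sparse regions can give only long stretches. In high stretches 82.6% of reporters were called higher, against the background of 36.9%, and in low ones 76% were called lower, against 33.7%. The stretches are chosen from the levels that also make these calls. A running median makes some stretches out of values in any order. Their number, means and called counts, here and below, are therefore given with no test.

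Per 100 integrations, chromosome 1 had 1.74 high and 2.45 low stretches. For high stretches 16 of the 19 other chromosomes had more, and for low stretches 4 of 19. The median of the others was 2.25 high and 2.07 low. These are counts on 1 map per chromosome and were not tested.

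The high stretch with the most reporters ran from 120970723 to 121398195, 427 kb with 16 reporters of 5 pools and a mean of 2.60, and 14 of them were called higher. Of these 16 reporters 14 lay on the plus strand. The stretch from 35754360 to 36039514 was 285 kb long and held 13 reporters of all 6 pools. Its levels were 1.16, 2.81, 4.11, 3.21, 2.85, 2.89, 4.69, 4.84, 0.64, 4.51, 2.32, 2.11 and 5.06 in order of position, and all 13 were called higher. This was also the longest run of neighbours called higher on the chromosome. Just past it, 176 kb on, the next reporter stood at -4.02. Further high stretches with many reporters ran from 84259945 to 84866243 (11 reporters, mean 1.43), from 9777536 to 10272761 (9, mean 1.87) and from 122103677 to 122785737 (9, mean 0.87). The last of these was the longest high stretch, at 682 kb, and held 1 reporter at -3.63 among 8 called higher.

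High stretches also came in a series. Between 133783167 and 137385604, 6 of them followed each other over 3.6 Mb, a region picked out after its levels were seen. This region held 55 reporters, 15.3 per Mb, of which 36 were called higher and 3 lower, where the background was 36.9% and 33.7%. Its means were 1.01, 2.47, 1.57, 0.92, 1.42 and 2.25 in mPGK-A to mPGK-F. Of the 55 reporters 41 lay in the 6 stretches, which were called from these same levels. The calls and the high means of the pools thus follow in part from the choice and are no test.

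The low stretches with the most reporters were large. From 16117436 to 20467664, over 4.35 Mb, 18 reporters of all 6 pools averaged -2.73, and 15 were called lower. One from 39968478 to 43487786 held 17 reporters with a mean of -2.56, one from 47218742 to 51434713 held 15 with -3.38, and those from 67194224 and 80576613 held 14 each, with -2.91 and -2.54. The longest, from 147436567 to 152852509, spanned 5.42 Mb with 13 reporters of all 6 pools, a mean of -3.55 ± 1.73 (SD over reporters) and 12 called lower, while the other stood at 0.56. The longest run of neighbours called lower had 14 reporters, from 68161309 to 71095264, with levels of -6.98 to -0.84 in 5 pools.

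Low stretches were not uniformly silent. The reporter at 67194224, mPGK-C with barcode aggggaatgcaccatt, had a level of 5.21, the fifth highest of the chromosome, with 746 and 830 DNA reads and 10358 and 10726 RNA reads. It had no other integration within 100 kb, and the following 13 reporters of the same low stretch, from 68161309 on, were all called lower. This reporter was the first of its stretch, and its neighbour outside the stretch, 286 kb away, had a level of 1.78. It thus stood at the edge of the low stretch and not deep inside it. Inside the stretch from 80576613 to 83120992, 2 of 14 reporters were called higher, the higher at 2.83.

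The edges between opposite stretches were measured where a high one followed a low one or the reverse. There were 18 such changes, 246 to 6802 kb apart. The closest was at the end of the longest low stretch, where a mean of -3.55 gave way to 0.87 between 152852509 and 153098311, with 2 reporters between. A high stretch ending at 39719707 (mean 1.37) was followed 249 kb on by a low one (mean -2.56) from 39968478. The largest step among the 5 closest was from -5.18 to 2.27, a 176-fold difference of means, between 33649326 and 34079088 over 430 kb with 6 reporters between. The remaining 2 of the 5 lay between 192492187 and 192838997 (-1.75 to 1.22) and between 155106703 and 155763708 (1.31 to -1.61). From the last reporter of a stretch to its next listed neighbour the median distance was 63.1 kb for high and 183 kb for low stretches, which limits how finely an edge can be placed.

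Whether the stretches hold for reporters that did not define them was tested by building them from 5 pools and reading the sixth. Left out in turn, the pools had mean levels inside high stretches of 1.25 (mPGK-A), 1.42 (mPGK-B), 1.36 (mPGK-C), 1.08 (mPGK-D), 1.08 (mPGK-E) and 0.45 (mPGK-F). Inside low stretches the same pools had -1.13, -0.73, -1.37, -1.44, -2.18 and -1.26. Of the left-out reporters in high stretches, 62.5% (mPGK-F) to 84.6% (mPGK-B) lay above the pool median. In low stretches 60% (mPGK-F) to 70.8% (mPGK-C) lay below it, so single reporters often stood on the other side. The high and low means did not overlap, each resting on 16 to 44 reporters. The difference was 2.46 ± 0.52 (SD, n = 6 pools), or 5.49-fold, above 0 in 6 of 6 pools (exact sign-flip permutation test, two-sided, p = 0.03125). Each pool also helped to build the maps in which the others were read. The 6 differences are therefore not fully independent, as the test takes them to be. A stretch of the same kind overlapped in all 6 left-out maps for 9 of the 22 high and 9 of the 31 low ones. These maps share most reporters, and leaving out a pool with no reporter in a stretch removes none of its members. The overlaps are therefore a description and no test. The very high stretch from 88326773, with no reporter of mPGK-A or mPGK-B, overlapped in only 2 of the 6 maps. That from 89124135, with none of mPGK-A or mPGK-C, overlapped in 4. Each had the minimum of 5 reporters.

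**Figure D3:**
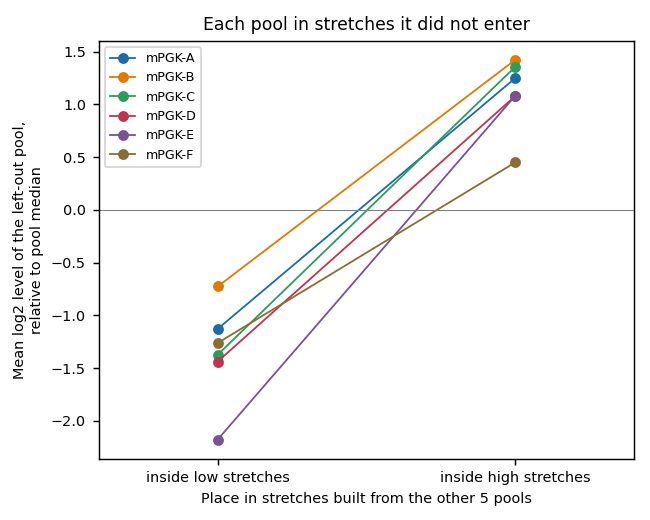
Mean log2 level of each left-out pool inside low and inside high stretches that were built from the other 5 pools; a line joins the values of a pool. Means inside low stretches lie between -2.18 and -0.73 and inside high ones between 0.45 and 1.42.

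Level followed how crowded the neighbourhood was. Of the 1266 reporters, 254 had no other integration of any pool within 100 kb, and their means were -1.25, -1.82, -1.59, -2.33, -2.22 and -1.53 in mPGK-A to mPGK-F. The 51 reporters with 7 or more others had means of 1.41, 1.69, 2.27, 2.38, 1.36 and 1.12. The pool means of the 2 groups did not overlap, and the difference was 3.497 ± 0.781 (SD, n = 6 pools), or 11.3-fold (exact sign-flip permutation test, p = 0.03125). Crowding was counted over all pools, so pools share crowded places, with as few as 6 crowded reporters in a pool. The SD and the test thus measure the spread between pools and not between places. Between them, 535 reporters with 1 to 2 others averaged -0.58 and 426 with 3 to 6 others averaged 0.48 over reporters. The share called higher was 17.7%, 29.2%, 46.7% and 66.7% from the emptiest to the most crowded class, against the background of 36.9%. The share called lower was 61.8%, 39.4%, 20.4% and 7.84%, against 33.7%. The same contrast was larger on chromosome 1 than on the other chromosomes by 0.79 ± 0.50 (SD, n = 6 pools) in 6 of 6 pools, from 0.12 in mPGK-A to 1.45 in mPGK-D (exact sign-flip permutation test, p = 0.03125).

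Summed over cultures, the median isolated reporter had 1581 reads in DNA and 181 in RNA, and the median crowded one 2040 and 3099. The part of this difference in DNA reads in the level was not tested.

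Gaps were the other face of low density. There were 20 gaps of at least 1 Mb between neighbouring listed integrations, 29.9 Mb or 15.5% of the span, against 15.4% on the other chromosomes. The longest ran from 84866243 to 87577316, 2.71 Mb, and the next from 100638650 to 102855396 (2.22 Mb), 115851887 to 117973001 (2.12 Mb) and 125092796 to 127099676 (2.01 Mb). The following 6 began at 30997206, 144334530, 78597611, 112993255, 146086197 and 174674491 and were 1.35 to 1.76 Mb long. Between 100000001 and 120000000 there were 6 of the 20 gaps, 9.33 Mb together, in the segment with the lowest mean. Whether the missing places could be mapped at all was not tested.

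Reporters at the rims of these gaps were low. The 39 flanking reporters had means of -0.78 (mPGK-A), -3.66 (mPGK-B), -2.72 (mPGK-C), -3.24 (mPGK-D), -2.59 (mPGK-E) and -2.55 (mPGK-F), with 3 to 9 reporters in a pool. They lay below the other reporters of the chromosome in 6 of 6 pools, by -2.30 ± 0.97 (SD, n = 6 pools), or 4.92-fold (exact sign-flip permutation test, p = 0.03125), with mPGK-A closest at -0.54. Of the 39, 29 were called lower (74.4%) and 3 higher (7.69%), against 33.7% and 36.9% overall. At 11 of the 20 gaps both rims were called lower. Of the rims, 29 had themselves no other integration within 100 kb, 2 to 7 in a pool. These were below the isolated reporters away from gaps in 6 of 6 pools, by -1.53 ± 1.10 (SD, n = 6 pools, exact sign-flip permutation p = 0.03125), the widest being -3.52 (mPGK-B) and the narrowest -0.14 (mPGK-A). This comparison and the next were both added after seeing the data. With all 39 rims, the difference from isolated reporters was -0.96 and missed the threshold (exact sign-flip permutation p = 0.0625). In mPGK-A it went the other way, -0.78 at the rims and -1.24 at isolated reporters. A larger difference at gap rims than on other chromosomes was not shown (-0.83 ± 0.86, exact sign-flip permutation p = 0.0938, adjusted 0.104).

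Exceptions lay at the 3 gaps with a rim called higher. The longest gap began next to a high stretch, with a reporter at 3.13 (4434 and 4647 RNA reads), and ended at -0.45. The gap from 78597611 to 80137812 had 3.85 at its left rim, with 9142 and 8163 RNA reads, and -5.93 at its right, with 26 and 16. The gap from 30997206 had 1.53 at its left rim and -4.66 at its right. At each of these gaps the left rim was called higher.

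**Figure D4:**
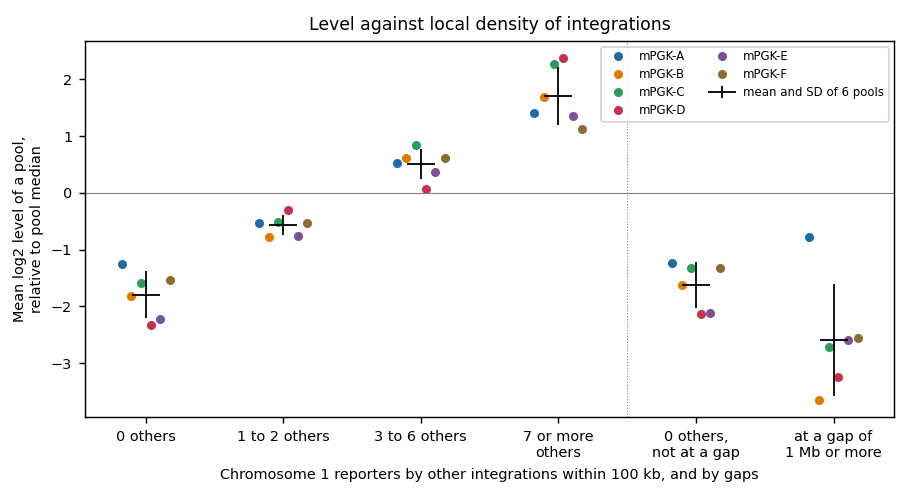
Mean log2 level of each pool (points) with mean and SD over 6 pools (black) for chromosome 1 reporters by the number of other integrations within 100 kb, and, right of the dotted line, for isolated reporters away from gaps and reporters at the rim of a gap of at least 1 Mb. The pool means rise from -1.79 to 1.71 with density, and the rims average -2.59 over pools.

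How far likeness reached was read from pairs of reporters. Up to 1 kb apart, 47 pairs had a Pearson correlation of 0.362, and from 1 to 5 kb 98 pairs had 0.453. It was 0.293 from 5 to 20 kb, 0.243 to 50 kb, 0.235 to 100 kb, 0.152 to 200 kb, 0.0995 to 500 kb, 0.110 to 1000 kb and 0.0285 beyond, up to 5000 kb. On the other chromosomes it fell from 0.425 in the first class to 0.0524 in the last, and leaving out each pool moved the first value on chromosome 1 between 0.210 and 0.464. Pairs of different pools, which share no culture or library, had 0.380 up to 1 kb and 0.512 from 1 to 5 kb. Pairs share reporters, so the correlations are descriptions over pairs. The median difference within a pair was 1.62 up to 1 kb and 2.21 beyond 1000 kb, so close neighbours were more alike but still commonly differed over 2-fold.

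**Figure D5:**
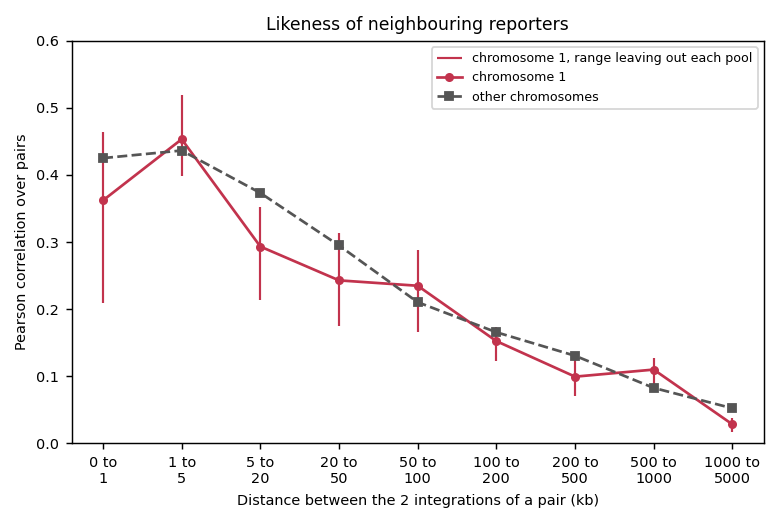
Pearson correlation of the levels of 2 reporters over pairs in 9 classes of distance (kb), for chromosome 1 (circles, with the range when each pool is left out) and the other chromosomes (squares). On chromosome 1 the values go from 0.453 at 1 to 5 kb to 0.0285 beyond 1000 kb.

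Some close neighbours were far apart in level. Among 115 pairs of different pools within 5 kb and with at least 100 DNA reads in each culture, the median difference was 1.43, while 47 pairs (40.9%) differed by less than 1 and 10 (8.70%) by more than 4. The most different pair was the silent mPGK-D reporter at 75591906, on the minus strand, and an mPGK-E reporter 760 bases on, on the plus strand, with barcode cttcggattgtactta. The second had 3045 and 3491 DNA reads and 809 and 1030 RNA reads, and levels of -0.34 and -0.25. Reporters 6.09 kb and 100 kb on the other side had levels of 1.67 and 2.05 and were called higher, so none of the neighbours listed within 100 kb was called lower. The pair at 95977994 and 95981447 had levels of -5.52 (mPGK-F, 0 and 14 RNA reads) and 0.19 (mPGK-A, 344 and 290 RNA reads). The pair at 8933999 and 8938542 had -4.35 (mPGK-C, 5 and 10 RNA reads) and 1.00 (mPGK-E, 774 and 707 RNA reads). These 3 pairs were named for their difference, which is a description.

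The 5 highest reporters came from pools mPGK-F, mPGK-D and mPGK-C, and all lay on the plus strand. The mPGK-F reporter at 88399328 reached 6.58, 95.9-fold above its pool median, with 15606 and 15227 RNA reads on 408 and 433 DNA reads. The mPGK-D reporter at 89125361 reached 5.83 and the mPGK-F reporter at 88417476 reached 5.50, both within the high stretches whose barcodes are given above. The mPGK-D reporter at 80563396, barcode tcacgaagctttagtt, reached 5.76 with 14826 and 14571 RNA reads, and its only neighbour within 100 kb stood at -2.71. This neighbour was the first member of the low stretch from 80576613, so a very high reporter stood 13.2 kb from the edge of a low stretch. All 5 were called higher (edgeR quasi-likelihood test, Benjamini-Hochberg adjusted p between 2.58e-09 and 2.68e-06).

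Of the 18 reporters without an RNA read, all called lower, 8 had no other integration within 100 kb (44.4%, against 20.1% of all reporters of the chromosome). The other 10 had neighbours within 100 kb. At 6 of them at least 1 neighbour was called higher, and at 7 at least 1 was called lower. How often reporters with RNA reads had such neighbours was not counted, so these counts are descriptions. In low stretches lay 10 of the 18 and in high ones 0, but the stretches were drawn with these levels included, so nothing is read from that. After 75591906, the ones with the most DNA reads were aactaaattagatgag (mPGK-D at 48037564, at least 143-fold below the middle of its pool) and cattcctgcgaatctt (mPGK-E at 41667679, at least 140-fold lower). The next were aggcttgacacaatg (mPGK-E at 82848529, at least 113-fold lower), a barcode of 15 bases, and atgcgcctcgaattaa (mPGK-B at 78077333, at least 97.1-fold lower). Reporters at 48037564, 41667679 and 78077333 had no neighbour within 100 kb, and the 2 neighbours of 82848529 were both called lower.

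Plus-strand reporters were higher than minus-strand reporters on chromosome 1. The 619 plus-strand and 647 minus-strand reporters differed by 0.48, 0.45, 0.39, 0.17, 0.25 and 0.45 in mPGK-A to mPGK-F, above 0 in 6 of 6 pools, with a mean of 0.37 ± 0.13 (SD, n = 6 pools), or 1.29-fold (exact sign-flip permutation test, p = 0.03125). Without the 120970723 stretch, where 14 of 16 reporters were on the plus strand, it was 0.30 (exact permutation p = 0.03125), an alternative added after seeing the data. It was above 0 in 8 of the 10 segments of 20 Mb. On the other chromosomes together the difference was -0.05 ± 0.11 (exact sign-flip permutation p = 0.3125), and chromosome 1 exceeded them by 0.42 ± 0.13 in 6 of 6 pools (exact sign-flip permutation p = 0.03125). Of the 20 chromosomes, X (0.55) and 19 (-0.41) had larger differences in size, X in 6 of 6 pools as well. Adjusted over the 20 chromosomes, the exact permutation p of chromosome 1 was 0.3125, which does not pass.

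The strand could be read more closely at 7 places where a minus-strand and a plus-strand reporter were listed 1 base apart. Such pairs were noticed in the positions and occurred 80 times in the genome, always with the minus strand first, while no position was listed more than once. The levels of minus and plus were 1.09 and 0.20 at 5008800, 1.96 and 0.25 at 39292691, and 0.40 and 1.502 at 77184077. They were -2.39 and -3.53 at 93926139, -0.07 and -0.09 at 137616533, 0.64 and 0.85 at 153932031, and 2.59 and 0.16 at 188334839. The minus-strand reporter was higher in 5 pairs and the plus-strand one in 2, the opposite of the direction over the chromosome, and the median difference in size was 1.10. In 6 of the 7 the reporters were in different pools. The low site at 93926139 was low for both orientations and both pools, and the pair at 188334839, with barcodes ttggcaatttgagtta in mPGK-E and tcggcaaggtttttat in mPGK-C, differed 5.40-fold.

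Reporters that shared a barcode were also compared. A barcode of chromosome 1 was found again at another site, always in another pool, for 77 reporters, giving 79 pairs. Over these pairs the Pearson r was 0.0240 and Spearman's rho 0.0337, with a median difference of 1.97, a description in which 4 pairs had both sites on chromosome 1. No barcode was listed at the same position in more than 1 pool.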

How the data were processed

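Barcodes from RNA and from genomic DNA were counted in 2 cultures of each of 6 pools, with 2 PCRs each, and sites were mapped by inverse PCR after DpnII digestion, per the labels' protocols. The authors deposited raw counts per barcode, pool and culture, for DNA and for RNA, per the file headers. Bowtie2 2.0 and mm9 appear in the submitters' processing notes. The sources used here do not give how the PCRs were combined, how barcodes were filtered, or whether positions count from 0 or 1, which leaves 1 base of doubt in each. Gene annotation was not used.

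Levels are log2 of RNA share (0.5 reads added) over DNA share among the listed barcodes, averaged over cultures, minus the pool median. Counts were tested per pool by edgeR's quasi-likelihood test (version 4.0.16, R 4.3.3, no replicate block, shifted to a pool median of 0, Benjamini-Hochberg over 17857 barcodes, threshold 0.05). The shift raised log2 ratios by 0.23 to 0.27. Differences between sets of reporters were taken within each pool and tested over the 6 pools with two-sided exact sign-flip permutations. The family adjusted together held 5 planned and 5 added differences, without the segments, single chromosomes and alternatives. Per the labels, RNA and DNA of the same number come from the same culture, and their deviations had correlations of -0.0021 to 0.058. DESeq2 1.42.0 was an alternative. Python 3.11.15, numpy 2.4.6 and scipy 1.17.1 were used. Only the left-out-pool test and the edgeR test, the latter on mPGK-A, were run on simulated data.

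Named items were, by rule, the 5 highest reporters, the 5 without RNA reads with the most DNA reads, the 6 highest and 6 lowest windows, the 5 high and 5 low stretches with the most reporters and the 3 longest of each, the 10 longest gaps, the 5 closest edges and the 3 most different close pairs. Others named were chosen after seeing positions or levels. The members and rules were chosen with earlier results of these data known.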

Additional observations from a re-analysis of the deposited data

Results flagged for a closer look

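In the segment from 20000001 to 40000000, mPGK-C had a mean level of 0.92 while the other 5 pools lay between -0.34 and 0.13, and its gap to them passed Dixon's limit for 6 values. Of 20 sets of 6 pool values examined, this was the 1 that passed, and chance flags about 1 in 20. The strand difference was larger on chromosome 1 than on the other chromosomes together by 0.42 in 6 of 6 pools. So was the contrast of crowded and isolated reporters, by 0.79, both by the exact permutation tests of the difference given above (p = 0.03125 each). Adjusted over the 20 chromosomes, the exact permutation p of the strand difference on chromosome 1 was 0.3125, and X had a larger one (0.55). The crowded and isolated contrast was not taken for each chromosome, so neither is shown to be particular to chromosome 1.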

How the results depend on the processing

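Calls of single reporters stayed within 1.5 times of the main counts (434 higher, 459 lower) in the alternatives run. The fit with a replicate block called 428 higher and 449 lower, and 868 calls were shared in the same direction. DESeq2 gave 436 and 455, TMM scaling without the shift 378 and 518, and leaving out the lowest 10% of DNA counts 399 and 428. Leaving out each pool gave 346 to 372 higher and 364 to 394 lower. Chromosome 1 minus the others missed the threshold with 5 added RNA reads (-0.16, exact permutation p = 0.0625) and without replicate 2 (-0.16, exact permutation p = 0.0625). With a pool left out no sign-flip test can go below 0.0625, so only values are given. Leaving out each pool or replicate, chromosome 1 minus the others ran from -0.23 to -0.14, strand from 0.34 to 0.41, crowded minus isolated from 3.28 to 4.12, gap rims from -2.43 to -1.82 and left-out pools from 2.04 to 2.77. Without mPGK-D, only 4 pools had both crowded and isolated reporters. The number of high stretches (22) was 14 to 24 with a pool or replicate left out, lowest without mPGK-F, 14 with a running median of 9, 35 with a limit of 0.5 and 13 with 1.5. Low stretches (31) were 21 to 35 with a pool or replicate left out, 46 with a limit of 0.5 and 20 with 1.5. The cause of these moves was not tested. Counting once a barcode listed at the same position in several pools was not run, because there is no such case. All gap rims against isolated reporters gave -0.96 (exact permutation p = 0.0625). Low RNA counts limit the levels of the low reporters, and about 1 reporter in 150 kb limits edges.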
